A study of Homo sapiens with 39 samples.

Results

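Guides against 6 genes were followed in pooled CRISPR knockout screens of A375 cells. The genes were the histone methyltransferases KMT2A, KMT2B, KMT2C and KMT2D, the demethylase KDM6A, and MEN1, which encodes menin. A375 is an established human melanoma line with a mutant BRAF kinase, and vemurafenib is an inhibitor of that kinase. Members were found by the gene part of each guide's name: 6 of the 1115 genes tested in a library of chromatin-related genes (the epigenetic library; 60 guides, 10 for each gene) and 6 of the 19101 genes tested in a whole-genome library (24 guides, 4 for each gene). All 84 guides passed the filter on low counts, and the same guide number in the 2 libraries does not name the same guide.

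All cells carried a knockout of a Mediator subunit before the libraries were added, so the controls carried it too. In MED12 knockout cells both libraries were screened, with guide DNA taken at day 0 and, after growth in the solvent DMSO or in 2 µM vemurafenib, at days 8 and 14. In MED23 knockout cells the epigenetic library was screened, at day 0 and after DMSO or 1 µM vemurafenib at day 14. Each of the 13 groups had 3 libraries. Whether a knockout line was 1 clone, and whether replicates were separate cultures, is not given in the sources used here, so p-values measure the spread between these libraries, which may be technical. Guide counts hold no measure of the parental knockout or of melanoma markers. The series concerns how Mediator bears on plasticity and drug resistance of melanoma cells, and the drug comparisons ask which gene losses changed growth under vemurafenib.

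The 4 KMT2 proteins, also called MLL enzymes, place methyl groups on lysine 4 of histone H3 and work in complexes built on the shared subunits WDR5, RBBP5, ASH2L and DPY30. KMT2A and KMT2B act mainly at promoters and bind menin, a scaffold protein that is a tumour suppressor in endocrine glands and a needed cofactor in leukaemias with a rearranged KMT2A. KMT2C and KMT2D act mainly at enhancers, and KDM6A, which removes methyl groups from lysine 27 of histone H3, is a subunit of their complexes. Mediator joins transcription factors bound at enhancers and promoters to RNA polymerase II, MED12 being part of its kinase module and MED23 of its tail. A guide that becomes rarer in such a screen marks cells that were outgrown, and a guide that becomes more common marks cells that outgrew the rest.

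Library totals ran from 16385700 to 20814730 counts in the MED12 epigenetic screen, from 22846320 to 28994690 in the MED23 screen and from 47766950 to 87591800 in the whole-genome screen. In the MED23 vemurafenib libraries 1 guide took 6.61% to 15.2% of all counts, against at most 0.64% in every other library. The gene score is the mean over a gene's guides of log2(CPM + 0.5), CPM being the count of a guide relative to its library's TMM-scaled total. Levels of a gene are its score turned back to CPM with the 0.5 taken off, called the geometric mean CPM of the guides here. Where guides are near 0, the added 0.5 weighs on these levels. A gene was called when its edgeR guide p-values, combined by rank aggregation, gave a Benjamini-Hochberg adjusted p under 0.05 over all genes. This rank test asks whether a gene's guides lie among the most changed of the library. It can pass over a moderate change where much of the library changes. A limma test of the gene scores, which asks only whether the score differs between libraries, is named wherever its calls are given. Each ± is an SE that treats the groups compared as unpaired. Where replicates pair, it also holds offsets that both groups share.

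**Figure D1:**
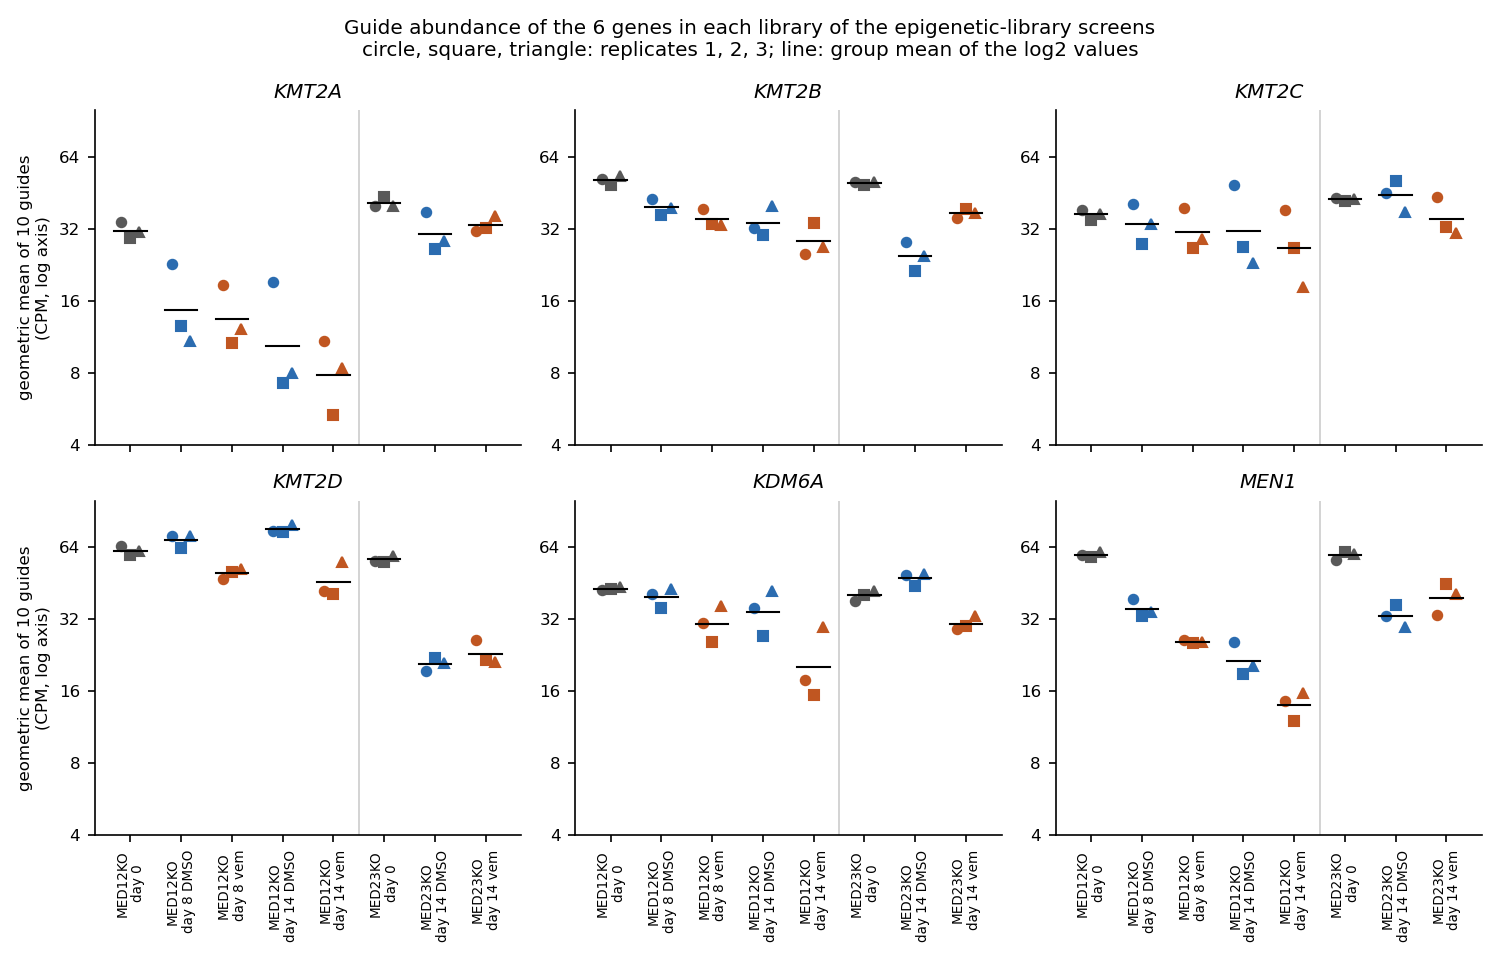
Guide abundance of the 6 genes in the 24 libraries of the epigenetic screens, as the geometric mean CPM of 10 guides on a log axis; circles, squares and triangles are replicates 1, 2 and 3, lines are group means, grey is day 0, blue DMSO and orange vemurafenib. KDM6A lies lower under vemurafenib than DMSO in both knockouts, KMT2D lies far below day 0 in MED23KO cells, and KMT2A and MEN1 drop furthest in MED12KO cells.

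KDM6A guides were lower under vemurafenib than in DMSO in both knockouts: in MED23 knockout cells at day 14 and in MED12 knockout cells at day 8. With MED23 lost they stood at 38.2, 40.5 and 42.1 CPM at day 0, at 48.8, 44.1 and 49.3 CPM in DMSO at day 14, and at 29.0, 30.0 and 33.1 CPM in vemurafenib. The drug and DMSO libraries did not overlap. Overlap is given here and below as a description. How many of all genes had groups that did not overlap was not counted. KDM6A fell by 0.62 ± 0.08 (SE, 3 against 3 libraries) on the log2 score, with an edgeR adjusted p of 9.51e-06, and 9 of its 10 guides were lower. It was the 1 member called of 6, where 10.8% of all genes were called, and it was called under all 16 alternative settings, with adjusted p from 2.38e-06 to 0.000418. Guides KDM6A_1 (67.8, 84.2 and 76.2 CPM in DMSO against 29.4, 24.0 and 30.6 CPM in drug) and KDM6A_3 (140.4, 105 and 104 against 41.4, 51.4 and 54.6 CPM) show the drop at the level of single guides. The exception was KDM6A_2, at 0, 1.26 and 3.28 CPM in DMSO and 5.05, 5.43 and 3.95 CPM in drug. This guide had already dropped from 31.6, 34.0 and 32.4 CPM at day 0. Against day 0 the KDM6A score in vemurafenib changed by -0.39, with 6 of 10 guides lower and a median of -0.25. The rank test did not call that change. Limma did (adjusted p of 0.00513, where it called 53.5% of all genes). The drop is thus relative to DMSO, where 9 of 10 guides were higher than at day 0 with TMM scaling.

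In MED12 knockout cells the day-8 comparison called 3 of the 6 members, all lower, where 1.70% of all genes were called in either direction. KDM6A, the demethylase of the enhancer complexes, stood at 40.7, 35.8 and 42.9 CPM in DMSO and at 30.8, 25.7 and 36.5 CPM in vemurafenib. The groups overlapped by 1 library, while each replicate was lower in drug than the DMSO library of its own number. KDM6A fell by 0.37 ± 0.16, with 9 of 10 guides lower and an edgeR adjusted p of 0.00209. KMT2D, the catalytic subunit of those complexes, stood at 71.0, 63.6 and 71.4 CPM in DMSO and 47.2, 50.5 and 52.0 CPM in vemurafenib, without overlap. It fell by 0.46 ± 0.07 with all 10 guides lower, between -0.12 and -0.76 (edgeR adjusted p of 0.0164). MEN1 stood at 39.0, 33.2 and 34.4 CPM in DMSO and at 26.3, 25.4 and 25.7 CPM in drug, again without overlap. It fell by 0.45 ± 0.07, with 8 of 10 guides lower and an edgeR adjusted p of 0.0406.

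The score changes of KMT2D, MEN1 and KDM6A were among the lowest 0.269%, 0.359% and 0.717% of all genes at day 8. The replicate numbers pair the MED12 libraries, and with the replicate block the edgeR adjusted p were 0.000496 for KMT2D, 0.00147 for KDM6A and 0.0307 for MEN1. The calls rest on few libraries: none of the 3 was called without DMSO replicate 3 or without vemurafenib replicate 2, and MEN1 lost its call whichever of the 6 libraries was left out. DESeq2 also ended the MEN1 call (adjusted p of 0.323). Limma on the gene scores called none of the 3 (adjusted p of 0.713, 0.999 and 0.884 for KMT2D, KDM6A and MEN1).

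By day 14 in the same cells the score differences of KDM6A, KMT2D and MEN1 were wider, and their unpaired SE were larger. KDM6A stood at 35.7, 27.2 and 42.0 CPM in DMSO and 17.9, 15.4 and 29.8 CPM in vemurafenib, with overlap by 1 library. Its score change was -0.76 ± 0.34 with 9 of 10 guides lower (edgeR adjusted p of 0.189). KMT2D stood at 74.8, 73.8 and 79.5 CPM against 41.8, 40.8 and 55.6 CPM, a change of -0.73 ± 0.15. MEN1 stood at 25.8, 18.8 and 20.3 CPM against 14.6, 12.0 and 15.7 CPM, a change of -0.60 ± 0.17. Neither KMT2D nor MEN1 overlapped between the groups. For KMT2D 8 of 10 guides were lower, from -1.34 to 0.27, with a median of -0.43 against -0.46 at day 8. The median KMT2D guide was thus not lower than at day 8. For MEN1 8 of 10 guides were lower, from -2.29 to 1.21, with a median of -0.38 against -0.33 at day 8. No member was called by the rank test (edgeR adjusted p of 0.331 for KMT2D and 1 for MEN1), where 1.43% of all genes were called. Limma called KMT2D (adjusted p of 0.00604) and MEN1 (adjusted p of 0.0313), 2 of the 24 genes it called, or 2.15% of all genes. With the replicate block as well, limma also called KDM6A (adjusted p of 0.00762). None of the 6 members was called for a difference of the drug effect between days 14 and 8, where 0.538% of genes were called. The 6 differences ran from -0.39 ± 0.37 for KDM6A to -0.09 ± 0.20 for KMT2B. With SE of this size and so few calls, a difference was not excluded.

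**Figure D2:**
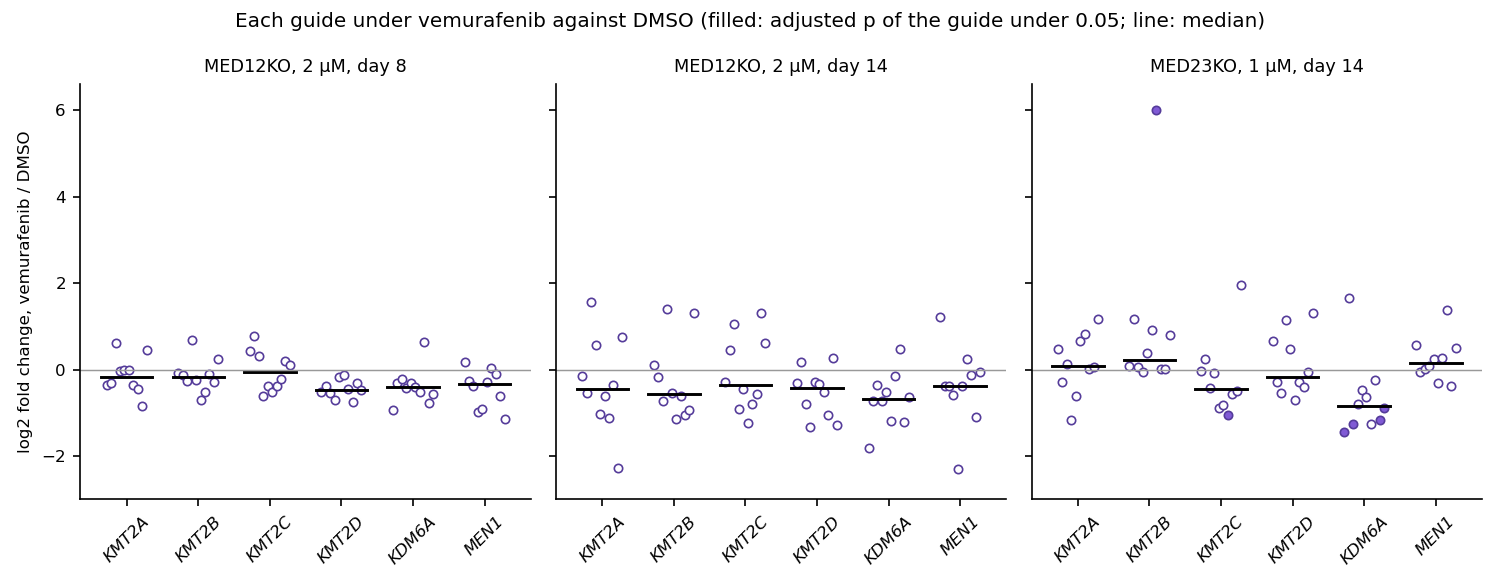
Log2 fold change of each of the 10 guides per gene, vemurafenib over DMSO, in the 3 drug comparisons of the epigenetic library; filled points have a guide-level adjusted p under 0.05 and lines are medians. All 10 KMT2D guides lie below 0 at day 8 in MED12KO cells, 9 of 10 KDM6A guides lie below 0 in every panel, and the KMT2B point near 6 in MED23KO cells is 1 guide.

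KMT2C, the second enzyme of the enhancer complexes, was not called in any drug comparison. In the MED23 screen it stood at 45, 50.5 and 37.7 CPM in DMSO and 43.6, 32.5 and 30.6 CPM in vemurafenib, overlapping. Its score change was -0.32 ± 0.20 with 8 of 10 guides lower (edgeR adjusted p of 0.0736; 0.0483, a call, with scaling on control guides, which moved the median of all genes by 0.21). Guide KMT2C_10 ran the other way and differed between libraries, at 567, 51.1 and 13.8 CPM in vemurafenib and 29.3, 104 and 29.6 CPM in DMSO. In MED12 knockout cells the KMT2C change was -0.10 ± 0.23 at day 8 and -0.23 ± 0.45 at day 14, smaller than its unpaired SE.

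KMT2D and MEN1 were not called under drug in MED23 knockout cells. KMT2D stood at 19.4, 21.9 and 20.9 CPM in DMSO and at 26.2, 21.6 and 21.1 CPM in vemurafenib, overlapping, with a score change of 0.14 ± 0.11. Its guides were split, 6 of 10 being lower with a median of -0.16, opposite in sign to the score. MEN1 stood at 32.9, 36.6 and 29.7 CPM in DMSO and at 33.3, 44.8 and 40.9 CPM in drug, again overlapping, with a change of 0.25 ± 0.15, 3 of 10 guides lower and a median of 0.16. The tested difference of the drug effects, MED12 minus MED23 knockout at day 14, was -0.68 ± 0.18 for KMT2D and -0.65 ± 0.23 for MEN1. The rank test called no member for this difference (edgeR adjusted p of 0.806 for KMT2D and 1 for MEN1, where 4.22% of genes were called). Limma called KMT2D (adjusted p of 0.0237) and KMT2B (adjusted p of 0.0403), where it called 12.6% of all genes. For KDM6A the difference was 0.05 ± 0.34 (edgeR adjusted p of 1) and turned to -0.36 with scaling on control guides, which moved the median of all genes by -0.42. The 2 knockouts were treated at different doses and in separate screens, so knockout, dose and screen cannot be told apart here.

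KMT2B, the promoter enzyme related to KMT2A, had 1 guide far from the rest in the MED23 screen. There KMT2B stood at 50.1, 48.6 and 50.1 CPM at day 0, 28.0, 21.3 and 24.7 CPM in DMSO and 35.6, 38.8 and 37.3 CPM in vemurafenib, with no overlap among the 3 groups. Limma called the drug difference, 0.59 ± 0.12 (adjusted p of 0.000795, where it called 37.6% of all genes), and the rank test did not (edgeR adjusted p of 1). Guide KMT2B_7 went from 20.0, 18.4 and 30.9 CPM at day 0 to 0, 0.126 and 0.0328 CPM in DMSO and was found at 2.03, 2.24 and 7.23 CPM in vemurafenib. The median over the 10 KMT2B guides was 0.22, and 8 of the other 9 guides were higher in drug.

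Growth without drug was measured as DMSO against day 0, with DMSO libraries that also served the drug comparisons; the values below and those above are therefore not independent. In MED12 knockout cells KMT2A guides were the most depleted of the members. They stood at 34.2, 29.1 and 31.0 CPM at day 0, at 22.7, 12.5 and 10.9 CPM in DMSO at day 8 and at 19.2, 7.23 and 7.96 CPM at day 14. Replicate 1 stayed above the other 2 at both times, and no DMSO library reached the day-0 range. KMT2A fell by 1.08 ± 0.32 to day 8, with 8 of 10 guides lower (edgeR adjusted p of 0.0226). It was the 1 member called, where 7.89% of genes were called, and it lost its call without day-0 replicate 1, without DMSO replicate 2 or 3 (adjusted p up to 0.144), by limma (0.0647) and with only the groups compared (0.0825). At day 14 the change was -1.55 ± 0.44 (edgeR adjusted p of 0.053). With the replicate block it was called (0.0329), and it was also called with DESeq2, with only the groups compared and without any 1 of the day-0 libraries. The rank test called 5.20% of all genes there and 8.70% with the block. Single KMT2A guides ranged from KMT2A_1, at 10.3, 9.23 and 9.89 CPM at day 0 and 1.24, 0.0597 and 0.335 CPM at day 14, to KMT2A_9, at 64.4, 57.3 and 57.0 CPM and then 192, 118 and 24.4 CPM.

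Menin guides were depleted beside those of KMT2A. MEN1 stood at 59.5, 58.2 and 61.0 CPM at day 0 in MED12 knockout cells and then at 39.0, 33.2 and 34.4 CPM at day 8 and 25.8, 18.8 and 20.3 CPM at day 14 in DMSO. The 3 groups did not overlap. The change to day 8 was -0.74 ± 0.07 with 8 of 10 guides lower. The rank test did not call it (edgeR adjusted p of 0.277; 0.0319, a call, with only the groups compared), and limma did (adjusted p of 0.00232), where it called 14.3% of all genes. The change to day 14 was -1.45 ± 0.14 with 9 of 10 guides lower. The rank test did not call that change either (edgeR adjusted p of 0.0734). Limma called it (adjusted p of 3.72e-06), together with KMT2A (0.00453) and KMT2B (0.0054), 3 of the 380 genes it called, or 34.1% of all genes. Guide MEN1_2 was called by itself, from 76.1, 63.5 and 63.0 CPM to 9.17, 4.36 and 0.95 CPM. Under vemurafenib at day 14 against day 0, MEN1 fell by 2.05 ± 0.11 (edgeR adjusted p of 0.0418, where 3.23% of genes were called). With the replicate block MEN1 was not called (adjusted p of 0.0592) and KMT2A was (0.00408, score change -1.93 ± 0.29), where 4.66% of genes were called. MEN1 lost this call too with scaling on control guides, with DESeq2, with the narrower rank cutoff, with only the groups compared, and without vemurafenib replicate 1 or 2. Limma called 5 of the 6 members in that comparison, all but KMT2C, where it called 35.4% of genes. KMT2D was among them with a score change of -0.44. Yet 6 of its 10 guides were higher, with a median of 0.28, opposite in sign to the score.

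The remaining members changed less in MED12 knockout cells without drug. KMT2D stood at 65.0, 59.5 and 61.5 CPM at day 0 and at 74.8, 73.8 and 79.5 CPM in DMSO at day 14, every library higher. Its change of 0.29 ± 0.05 was not called (edgeR adjusted p of 0.627) and turned to -0.12 with scaling on control guides, which moved the median of all genes by -0.41. The changes to day 14 were -0.59 ± 0.13 for KMT2B, -0.31 ± 0.18 for KDM6A and -0.23 ± 0.33 for KMT2C. The median of the 6 members was -0.45 and that of all genes -0.09.

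**Figure D3:**
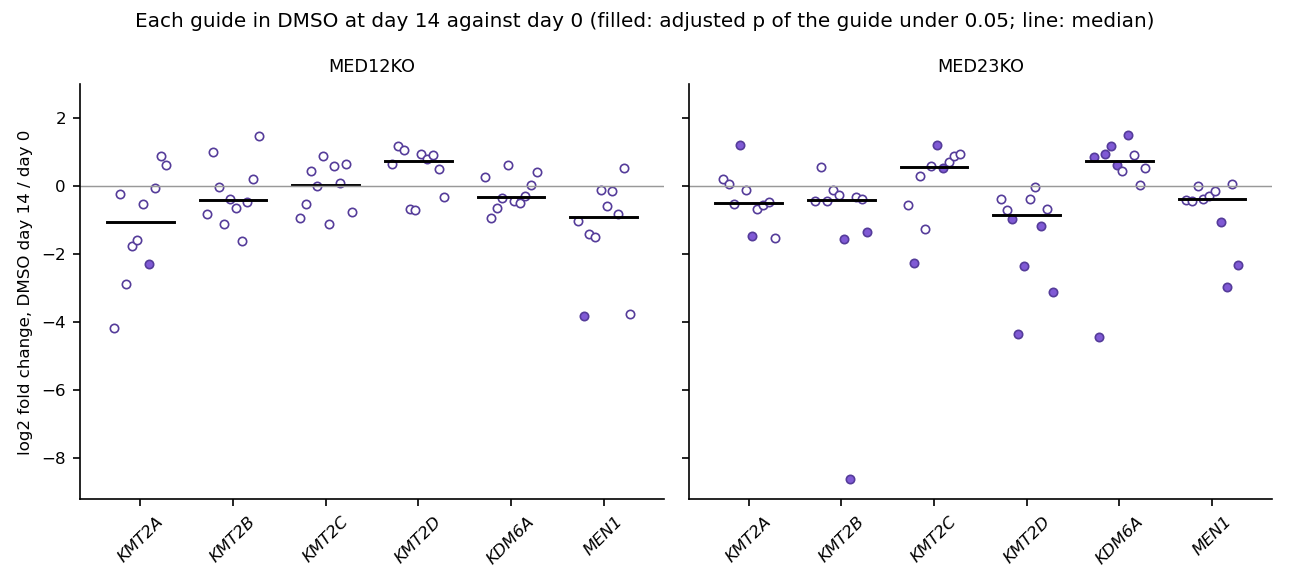
Log2 fold change of each guide in DMSO at day 14 over day 0 in the 2 knockouts, 10 guides per gene; filled points have a guide-level adjusted p under 0.05 (2.38% of all gene-targeting guides in MED12KO cells and 33.1% in MED23KO cells) and lines are medians. The KMT2D median is 0.74 in MED12KO and -0.83 in MED23KO cells, where all 10 KMT2D guides lie below 0.

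KMT2D was the most depleted member in MED23 knockout cells. It stood at 56.2, 55.6 and 58.9 CPM at day 0, at 19.4, 21.9 and 20.9 CPM in DMSO and at 26.2, 21.6 and 21.1 CPM in vemurafenib, far from day 0 in every library. The change in DMSO was -1.43 ± 0.06 with all 10 guides lower, from -0.02 to -4.33. In this comparison 18.2% of genes were called, and the rank test did not call KMT2D (edgeR adjusted p of 0.283). Limma did (adjusted p of 1.24e-07), with KMT2A, KMT2B and MEN1, where it called 59.6% of all genes. Under vemurafenib against day 0 KMT2D fell by 1.30 ± 0.10 with 9 of 10 guides lower (edgeR adjusted p of 0.0132). It was the 1 member called there, where 16.2% of genes were called (67 higher and 114 lower; 51 and 47 with scaling on control guides), and the call was lost only with the fit on the groups compared (adjusted p of 0.0532; 0.00997 with the replicate block in that same fit). Limma called 4 members in that comparison, KMT2B, KMT2D, KDM6A and MEN1, where it called 53.5% of genes. Guide KMT2D_4 went from 60.3, 78.0 and 81.3 CPM to 2.39, 4.71 and 3.78 CPM in DMSO, and KMT2D_8 from 116, 113 and 120.1 CPM to 55.2, 53.3 and 48.0 CPM.

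KDM6A was the 1 member called higher in MED23 knockout cells without drug. Its score rose by 0.23 ± 0.06 (edgeR adjusted p of 0.0163), 9 of 10 guides being higher with a median log2 fold change of 0.76, while KDM6A_2 dropped as described above. Scaling on control guides moved the median of all genes by -1.01 in this comparison, turned the KDM6A change to -0.77 and ended the call (adjusted p of 0.114), so the direction holds relative to the other genes of the library and not to the control guides. That scaling moved the split of calls from 62 higher and 141 lower to 47 higher and 60 lower. The call was also lost without DMSO replicate 1, with the narrower rank cutoff and by limma (adjusted p of 0.0547). The changes of the others in DMSO were -1.0 ± 0.11 for KMT2B, -0.84 ± 0.09 for MEN1, -0.42 ± 0.16 for KMT2A and 0.05 ± 0.12 for KMT2C. The KMT2C value turned to -0.96 with scaling on control guides.

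The difference of these growth effects between the knockouts was tested in a joint fit of 18 libraries. KMT2A was called: its change was lower in MED12 than in MED23 knockout cells by -1.21 ± 0.46 (edgeR adjusted p of 0.00662), where 5.92% of genes were called (44 higher and 22 lower; 27 and 24 with scaling on control guides). It was not called without MED12 DMSO replicate 2 (adjusted p of 0.0751) or 3 (0.101). Among its guides, KMT2A_1 stood at 34.6, 22.6 and 36.2 CPM in MED23 DMSO libraries, near its day-0 values of 23.8, 28.5 and 28.4 CPM, while it was nearly lost in MED12 knockout cells. Its guides were split, 6 being lower and 4 higher, from -4.46 to 2.03. KMT2D lay on the other side, 1.63 ± 0.08 higher in MED12 than in MED23 knockout cells with all 10 guides higher. Its edgeR adjusted p was 0.0582, and 0.0263 with a replicate block for the MED12 libraries, whose numbers pair, which called 4.75% of genes; that fit was chosen after seeing the data. Limma called KMT2D (adjusted p of 1.05e-05), KMT2A (0.0302) and MEN1 (0.0198; difference -0.71 ± 0.16), where it called 24.4% of genes. Scaling on control guides moved the median of all genes by 0.70 here. With it the difference was -0.49 for KMT2A (adjusted p of 0.00162), 2.32 for KMT2D (0.0371) and -0.00036 for MEN1, and those of KDM6A and KMT2C turned from -0.64 and -0.38 to 0.04 and 0.32.

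**Figure D4:**
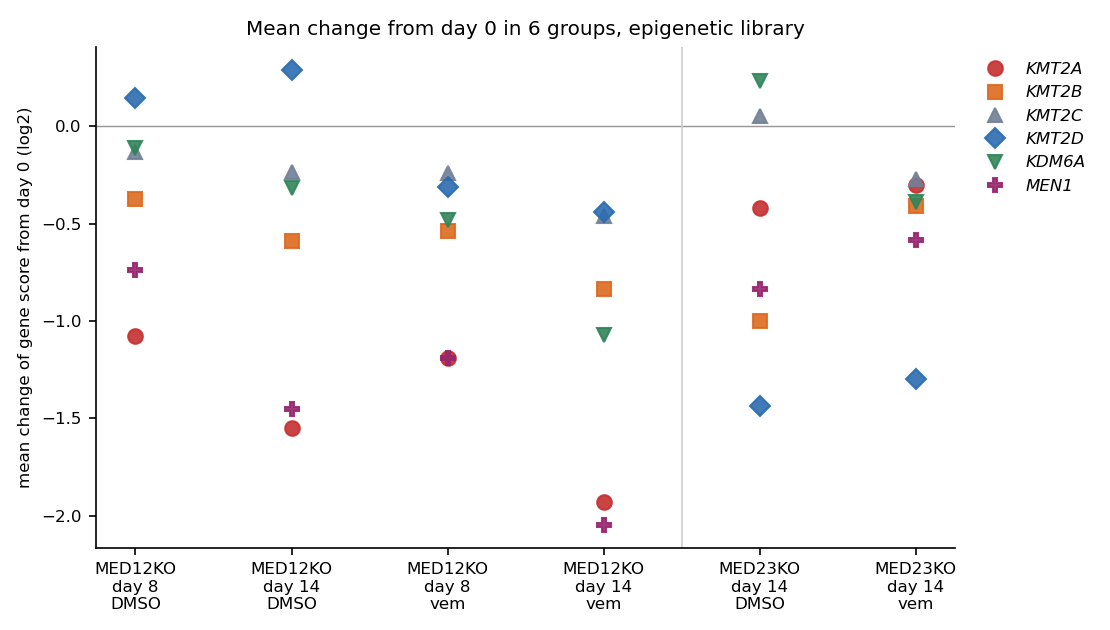
Mean change of the gene score from day 0 of the same screen in the 6 later groups of the epigenetic library, 1 symbol per gene. KMT2A and MEN1 lie at the bottom in the 4 MED12KO groups (from -0.74 to -2.05) and KMT2D lies at the bottom in both MED23KO groups (-1.43 and -1.30).

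The whole-genome library gave a second measurement in MED12 knockout cells, in other sequencing libraries but with only 4 guides per gene. Whether these guides are also in the epigenetic library is not given in the sources used here. At day 8 under vemurafenib the lowest 3 of the 6 members were again MEN1 (-0.58 ± 0.36), KMT2D (-0.46 ± 0.16) and KDM6A (-0.33 ± 0.48), in the lowest 0.12%, 0.424% and 2.47% of all genes. KMT2D stood at 11.5, 11.3 and 14.7 CPM in DMSO and 8.18, 8.27 and 10.4 CPM in drug, without overlap, and its 4 guides were lower by similar amounts, from -0.36 to -0.46. None of the 6 members was called (edgeR adjusted p of 0.468 for MEN1, 0.706 for KMT2D and 0.987 for KDM6A), where 0.0262% of all genes were called. The other 3 members changed by -0.24 ± 0.33 (KMT2B), 0.01 ± 0.21 (KMT2C) and 0.02 ± 0.36 (KMT2A). At day 14 under vemurafenib against DMSO the KMT2D guides were split, 2 of 4 being lower with a median of -0.003 and a score change of -0.32. KDM6A changed by -0.65, with 3 of 4 guides lower and a median of -0.36. Neither was called, where 0% of all genes were called.

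MEN1 was the most depleted member in every comparison of the whole-genome screen. It stood at 5.14, 4.60 and 4.80 CPM at day 0, at 2.78, 2.00 and 1.52 CPM in DMSO and 1.75, 1.42 and 0.649 CPM in vemurafenib at day 8, and at 1.94, 1.74 and 0.773 CPM in DMSO and 0.467, 0.421 and 0.261 CPM in vemurafenib at day 14. The drug and DMSO libraries overlapped at day 8. At day 14 every drug library lay below every DMSO library, and every DMSO library below day 0. Guides MEN1_1 and MEN1_3 had a count of 0 in all 3 vemurafenib libraries at day 14, so the levels there depend on the 0.5 added to CPM. MEN1_1 had counts of 474, 465 and 533 at day 0 and 4, 253 and 2 in DMSO at day 14; MEN1_3 had 380, 275 and 271 and then 1, 0 and 10. With guides at 0 set to a floor of 3 counts per library, the median over the 4 guides was -2.04 on the log2 scale for vemurafenib against DMSO and -3.93 against day 0.

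The score change of MEN1 under vemurafenib against DMSO at day 14 was -1.12 ± 0.31 with all 4 guides lower, in the lowest 0.215% of genes. It was not called (edgeR adjusted p of 0.136), and neither was any other gene: 0 of 19101, or 0% of genes, against 1003 at an unadjusted p under 0.05, with limma also calling 0. Against day 0 the score change was -2.60 ± 0.11, which limma called (adjusted p of 0.00145, where it called 6.38% of genes) and was not called by the rank test (edgeR adjusted p of 0.119, where 0.0524% were called, 7 higher and 3 lower, or 5 and 1 with scaling on control guides). In DMSO the MEN1 changes were -1.07 ± 0.21 to day 8 (adjusted p of 0.804, where 0.262% of genes were called) and -1.48 ± 0.30 to day 14 (adjusted p of 1, where 0.152% were called). Limma called the latter (adjusted p of 0.027), where it called 3.86% of genes. No member was called by the rank test in these comparisons.

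**Figure D5:**
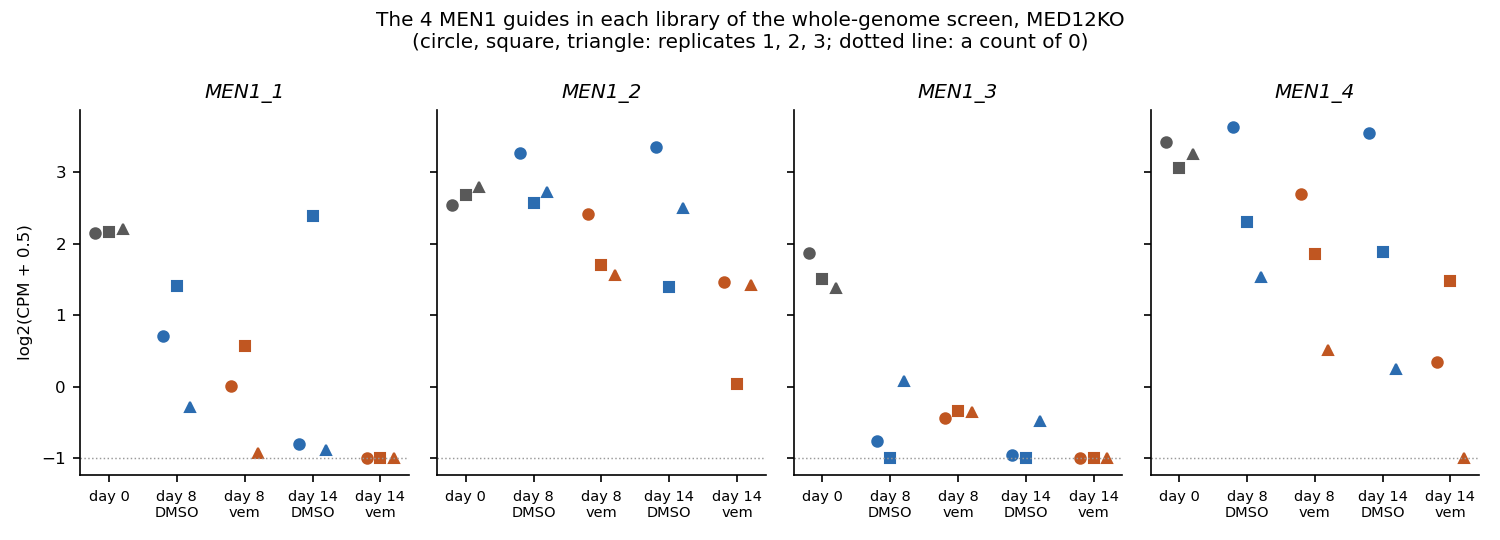
The 4 MEN1 guides of the whole-genome library in the 15 libraries, as log2(CPM + 0.5), circles, squares and triangles being replicates 1, 2 and 3 and the dotted line a count of 0. MEN1_1 and MEN1_3 reach a count of 0 in all 3 vemurafenib libraries of day 14, and MEN1_2 and MEN1_4 lie between 0 and 2.29 CPM there.

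KMT2A was not called with the guides of the whole-genome library. It stood at 3.88, 3.97 and 4.41 CPM at day 0 and at 1.46, 5.33 and 4.44 CPM in DMSO at day 14, a change of -0.26 ± 0.49 with overlap (edgeR adjusted p of 0.607). Its 4 guides went different ways. KMT2A_2 went from 1.73, 1.89 and 1.42 CPM to 0 in all 3 libraries, and KMT2A_3 from 11.1, 11.8 and 10.2 CPM to 36.7, 152 and 26.9 CPM. KMT2A_1 went from 2.39, 2.30 and 4.10 CPM to 1.10, 0.169 and 26.7 CPM, and KMT2A_4 from 4.45, 4.39 and 5.67 CPM to 0, 22.0 and 1.11 CPM. Both were lower than day 0 in 2 of 3 libraries and higher in 1. Single libraries also weighed on guides of other members. KMT2D_3 stood at 11.8, 6.93 and 165 CPM in DMSO at day 14, from 18.1, 17.6 and 15.1 CPM at day 0, and KDM6A_3 stood at 17.5, 0.131 and 32.0 CPM.

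Among the other genes of the pathway, subunits of the shared core were called in drug-free growth in the epigenetic library. WDR5, the subunit that anchors the core, fell by 2.26 in MED12 knockout cells (edgeR adjusted p of 0.00014) and by 3.47 in MED23 knockout cells (0.00412) in DMSO at day 14. RBBP5 also fell in MED23 knockout cells, by 1.67 (0.0266), so 2 of the 4 core genes were called there, where 18.2% of all genes were, and 1 of 4 in MED12 knockout cells, where 5.20% were. ASH2L changed by -1.14 and -0.94 and DPY30 by -1.08 and -1.25 in MED23 and MED12 knockout cells, without a call. The median of the 4 core genes was -1.10 in MED12 and -1.41 in MED23 knockout cells, and that of all genes -0.09 and -0.18. In the whole-genome library none of the 4 was called in DMSO at day 14, the changes being -0.21 for WDR5, -1.12 for RBBP5, 0.37 for ASH2L and -1.79 for DPY30; limma called RBBP5 (adjusted p of 0.0317) and DPY30 (0.0045). Under vemurafenib in MED23 knockout cells WDR5 rose by 2.27 (edgeR adjusted p of 0.000781) and RBBP5 by 1.15 (0.0213) against DMSO, opposite in sign to KDM6A. Against day 0 the 4 core genes in those vemurafenib libraries had a median change of -0.48 (from -1.19 to 0.03), without a call. The rise is thus relative to DMSO, where they were more depleted. In MED12 knockout cells the drug changes of WDR5 and RBBP5 were 0.33 and 0.02 at day 14, without a call.

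Of the subunits that accompany KDM6A in the KMT2C and KMT2D complexes, none of NCOA6, PAXIP1 and PAGR1 was called in any comparison. The share of all genes called ran from 0% to 18.2% over the comparisons. With MED23 lost NCOA6 changed by -0.29, PAGR1 by -0.16 and PAXIP1 by 1.16 under vemurafenib against DMSO, while in MED12 knockout cells at day 14 the values were -0.11, 0.09 and -0.03. Against day 0 in MED23 knockout cells the 3 genes ran from -1.57 to -0.20 in DMSO and from -0.60 to -0.36 in vemurafenib. The PAXIP1 rise is thus relative to DMSO and not to day 0. KDM6B, the demethylase related to KDM6A, was not called either, at -0.42 in MED12 knockout cells. Among partners of KMT2A, HCFC1 fell by 2.23 in MED23 knockout cells in DMSO (edgeR adjusted p of 0.0164) and PSIP1, which links menin and KMT2A to chromatin, changed by 0.08 there and by -0.59 in MED12 knockout cells.

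Genes of other complexes that act on the same histone residues were called in both directions. In DMSO at day 14, EZH2 fell by 1.65 (edgeR adjusted p of 0.000891) and EED by 1.24 (0.0353) in MED12 knockout cells, where KDM5C rose by 0.68 (0.0115), and CXXC1 fell by 2.36 (0.0112) and WDR82 by 3.40 (0.0284) in MED23 knockout cells. Under vemurafenib against DMSO with MED23 lost, 3 of 4 SET1 complex genes rose (SETD1B, CXXC1 and WDR82, median of the 4 1.32), as did 2 of 5 genes of H3K27 methylation (EZH2 by 0.95 and EED by 1.43, median 0.71), where 10.8% of all genes were called and the median of all genes was 0.16. Against day 0 the 4 SET1 genes in those vemurafenib libraries had a median change of -0.87 (from -1.12 to 0.16), without a call. EED was called higher against day 0, and the median of the 5 H3K27 genes was -0.0006. Of 5 H3K4 demethylases, KDM5B fell by 0.34 under vemurafenib against DMSO in MED23 knockout cells. In MED12 knockout cells at day 14, KDM1A was the 1 of these 5 called under vemurafenib against DMSO and fell by 0.89 (edgeR adjusted p of 0.0118). No SET1 or H3K27 gene was called there, where 1.43% of all genes were called. No gene of the 6 other H3K4 methyltransferases was called at day 14 in either knockout. Those comparisons called 1.43% to 5.20% of all genes in MED12 and 10.8% to 18.2% in MED23 knockout cells.

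Over the 6 group means of change from day 0, the pattern of MEN1 was closest to TADA2A (root mean square difference 0.17 on the log2 scale), then to KMT2A (0.26) and USP1 (0.27), where the median gene differed from it by 1.23. KMT2A was closest to UBE3D (0.17), USP1 (0.20) and KDM3B (0.25). KDM6A was closest to GSG2, FBXO11 and BRWD1 (0.17 to 0.19), KMT2B to ZZZ3, TAF4 and ACTR8 (0.17 to 0.18), KMT2C to CLOCK, FBXO21 and CHFR (0.08 to 0.11) and KMT2D to ZNF687, TAF3 and ORC1 (0.30 to 0.33). Among the members themselves KMT2A with MEN1 was the closest pair and KMT2C with KDM6A the next (0.28), while KMT2C with KMT2D differed by 0.78 and KMT2D with KDM6A by 0.86. These distances are a description of 6 means from 2 screens that share their day-0 and scaling within each screen.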

How the data were processed

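The authors deposited 3 tables of raw counts per guide, whole numbers that were not normalized; per the submitters' processing notes bcl2fastq, HISAT2 and HTSeq were used, with versions and build not given in the sources used here. Groups came from the sample titles. Guides kept by edgeR's filter (minimum count 10, total 15) numbered 12214 of 12214 and 77158 of 77441. Counts were scaled by TMM and tested per guide with edgeR 4.0.16 (quasi-likelihood, R 4.3.3) over all groups of a screen. Guide p-values were combined per gene with at least 3 guides by robust rank aggregation (alpha 0.25, exact null), once per direction. The smaller p, times 2 and adjusted by Benjamini-Hochberg over all genes, was compared with 0.05. The method was tested on simulated data of 1 drug comparison per screen, drawn without pairing of replicates. It made calls in the epigenetic screens and missed many of the smaller changes in the difference between knockouts. In the whole-genome drug comparison at day 8 it called few if any changed genes. Alternatives used limma 3.58.1, DESeq2 1.42.0, other scalings and filters, a narrower rank cutoff (alpha 0.1), the replicate block and leaving out each library. Paired checks: after removing group means, same-numbered libraries at days 8 and 14 correlated at 0.64 to 0.899 (MED12 epigenetic) and 0.758 to 0.919 (whole-genome), and at 0.332 to 0.658 with day 0, so numbers pair these libraries. In MED23, numbers pair day 0 with vemurafenib (0.300 to 0.320). DMSO replicate 3 correlated with its own number (0.300 and 0.343), but DMSO replicates 1 and 2 did so with each other's number (0.283 to 0.343) and not with their own (-0.188 to -0.148), so numbers do not pair comparisons that hold MED23 DMSO. The members, lists and likeness rule (the 3 nearest genes of each member; listed genes that were called, and 10 fixed ones in any case) were chosen with earlier results of these data known. Counting intervals are not given, since PCR reads without molecular identifiers are not independent molecules.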

Additional observations from a re-analysis of the deposited data

Results flagged for a closer look

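The growth effect of KMT2A in DMSO at day 14 against day 0 differed between the knockouts by a test of the difference itself: -1.21 ± 0.46 on the log2 score, MED12 minus MED23 knockout (edgeR adjusted p of 0.00662), called under 21 of 23 alternatives, with adjusted p from 0.00162 to 0.101. The 2 exceptions were the fits without MED12 DMSO replicate 2 or 3. The change was -1.55 in MED12 and -0.42 in MED23 knockout cells, and with the 4 guides of the whole-genome library it was -0.26 in MED12 knockout cells. Knockout and screen cannot be told apart.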

How the results depend on the processing

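The number of members called moved with the test. The counts below stand without the share of all genes called and describe the tests, not the members. At day 14 against day 0, limma without the block called 34.1% (DMSO) and 35.4% (vemurafenib) of all genes for MED12. For MED23 it called 59.6% and 53.5%. Limma on gene scores, in place of the rank test, called 0 in place of 3 (MED12, drug at day 8), 2 in place of 0 (drug at day 14), 3 in place of 0 (DMSO day 14 against day 0) and 5 in place of 1 (vemurafenib day 14 against day 0). For MED23 it called 2 (drug), 4 (DMSO against day 0) and 4 (vemurafenib against day 0), each in place of 1. It called 1 in place of 0 in both day-14 comparisons of the whole-genome library with day 0, and for MED12 minus MED23 2 in place of 0 (drug) and 3 in place of 1 (growth). In DMSO at day 8 against day 0 in MED12 its 1 call was MEN1 in place of KMT2A, as with only the groups compared. Limma with the replicate block, chosen after seeing the data, called 0, 3, 2 (DMSO day 8 against day 0, in place of 1), 4 and 6 in MED12, 2, 4 and 4 in MED23, 1 (DMSO day 8), 2 and 2 in the whole-genome library, and 3 and 4 for the differences. The replicate block in edgeR called 1 in place of 0 (MED12, DMSO day 14) and 2 in place of 1 (growth difference). In MED23 the block left each count at 1. Where MED23 DMSO libraries enter, the block joins libraries whose numbers do not pair, so it does not test a true pairing there. A block for the MED12 libraries only, chosen after seeing the data, also gave 2 for the growth difference, and a block within only the groups compared, chosen likewise, left 1 for MED23 vemurafenib against day 0. DESeq2's test gave 1 (MED12, DMSO day 14), 0 (MED12, vemurafenib against day 0) and 2 (growth difference), only the groups compared gave 1, 0 and 2 for the same and 0 for MED23 vemurafenib against day 0, and DESeq2 size factors gave 2 for the growth difference. Scaling on control guides gave 0 (MED12, vemurafenib against day 0), 2 (MED23, drug), 0 (MED23, DMSO) and 2 (growth difference), and turned KDM6A in MED23 DMSO from 0.23 to -0.77. The narrower rank cutoff gave 0 for MED12 vemurafenib and MED23 DMSO against day 0. Without 1 library at a time, counts were 0 to 2 (MED12, drug at day 8), 0 to 1 (drug at day 14, DMSO at day 8 and at day 14), 0 to 3 (vemurafenib against day 0), 1 to 2 (MED23, drug), 0 to 1 (MED23, DMSO) and 0 to 3 (growth difference). The cause of these changes was not tested. All other counts stayed within 1.5 times. The whole-genome library has 4 guides per gene and few calls among all genes. In simulated data of its drug comparison at day 8, few if any changed genes were called, and its other comparisons were not simulated. The absence of a call in this library thus says little.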
